A study of Homo sapiens with 8 samples.

Results

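The interferon receptor cluster on chromosome 21 holds 4 receptor genes in the order IFNAR2, IL10RB, IFNAR1 and IFNGR2, and its p53 ChIP-seq peaks are described here. Chromatin immunoprecipitation with sequencing (ChIP-seq) recovers DNA bound to a protein with an antibody, and a peak is a stretch where the precipitated DNA exceeds its background. The peaks were selected by position, as those that shared at least 1 bp with the window chr21:34590000-34820000 on build hg19, which is 230 kb long. The window was chosen because a site between IFNAR1 and IFNGR2 had a peak in all 4 libraries and a high fold enrichment in each list, so the presence and the rank of that site are descriptions and were not tested. The window held 24 of 97582 peaks over the 4 lists, which merged into 15 of 63869 sites, a site being a run of peaks that overlap one another in any library.

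The study mapped p53 in 293T cells. This line, derived from human embryonic kidney, makes the SV40 large T antigen, a viral protein that binds p53. The design asks which genes p53 targets at baseline and under DNA damage. Cells of the Dox group received doxorubicin at 0.5 µg/ml for 24 h, and cells of the PBS group received the vehicle, phosphate-buffered saline, for the same time. All libraries came from the same line and the same p53 antibody clone, with 2 libraries per condition. In both conditions replicate 1 came from cells at passage 3 and replicate 2 from cells at passage 5, so the replicate number and the passage cannot be told apart. The replicates of a condition were thus cells of different passages, and the p-values take in that difference together with any technical spread.

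IFNAR1 and IFNAR2 are the chains of the receptor for type I interferons, the antiviral cytokines that include interferon alpha and beta. IFNGR2 is the signal-transducing chain of the receptor for interferon gamma, and IL10RB is the shared chain of the receptors for interleukin 10, interleukin 22 and the type III interferons. These class II cytokine receptors pass their signal through Janus kinases and STAT transcription factors. In the RefSeq order of genes on GRCh38.p14, the divergent transcript IL10RB-DT and the pseudogene USF1P1 lie within the cluster, and TMEM50B follows IFNGR2. p53, a tumour suppressor, binds DNA as a tetramer at pairs of short half-sites, and doxorubicin, a topoisomerase poison, breaks DNA and thereby activates p53.

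Promoter sequences show the starts of the genes on both sides of the strong site, IFNAR1 and IFNGR2, and of IL10RB, whose promoter was the only one of those searched to hold a match to the p53 half-site. They are RefSeq sequences on build GRCh38.p14, from 250 bases before to 50 bases after a gene start, 5′ to 3′ on the plus strand. Of the 4 genes, 3 had an entry, with 4 promoters in all, 2 of them of IFNAR1. IFNAR2 had none. The positions are chr21:33266117-33266416 for IL10RB, chr21:33324145-33324444 for the first IFNAR1 promoter and chr21:33403163-33403462 for IFNGR2. They were not converted to hg19 and so were not set against the positions of the peaks. Capitals mark matches to the p53 half-site and to the gamma-activated site TTCNNNGAA.
IL10RB: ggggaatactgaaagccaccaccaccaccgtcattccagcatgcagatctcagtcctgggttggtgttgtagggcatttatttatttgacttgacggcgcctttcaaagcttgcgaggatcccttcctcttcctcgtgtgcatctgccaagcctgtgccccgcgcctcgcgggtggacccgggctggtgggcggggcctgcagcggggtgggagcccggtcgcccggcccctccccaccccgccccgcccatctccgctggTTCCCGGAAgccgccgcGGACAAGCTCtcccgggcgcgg
IFNAR1: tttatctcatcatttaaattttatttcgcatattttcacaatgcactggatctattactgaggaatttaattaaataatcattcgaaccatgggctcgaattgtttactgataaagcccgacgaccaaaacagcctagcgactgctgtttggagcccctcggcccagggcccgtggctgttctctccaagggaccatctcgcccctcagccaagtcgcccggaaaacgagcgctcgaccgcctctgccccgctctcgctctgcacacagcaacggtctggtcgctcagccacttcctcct
IFNGR2: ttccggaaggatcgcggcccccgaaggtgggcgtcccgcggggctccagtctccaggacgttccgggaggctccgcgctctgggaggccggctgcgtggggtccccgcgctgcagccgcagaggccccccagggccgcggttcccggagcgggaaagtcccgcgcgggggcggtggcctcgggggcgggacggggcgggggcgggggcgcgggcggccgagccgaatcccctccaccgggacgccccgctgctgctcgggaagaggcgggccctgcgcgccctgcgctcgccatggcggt

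The IL10RB promoter held 1 match to the p53 half-site and 1 to the gamma-activated site, which lie close together near its downstream end. The promoters of IFNAR1 and IFNGR2 held neither. Over 34796 promoters of the same length, 6.65% held the p53 half-site and 7.67% the gamma-activated site, searched on both strands. The core CATG, found in 54.9% of all promoters, occurred once in the promoters of IL10RB, IFNGR2 and the first of IFNAR1. The interferon response element and the AP-1 motif TGANTCA, in 3.57% and 7.73% of all promoters, matched none of the 4. A match describes letters and does not show binding. The letters of the strong site itself are not printed, and the distance of each peak from the gene starts was not worked out, because no sequence or annotation of hg19 was used here.

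The strong site lay between IFNAR1 and IFNGR2. It was the only window peak in each list that reached a −log10 q of 1.3, where q is the caller's own adjusted p. Over whole lists, that value was reached by 3.66% and 4.84% of peaks for Dox (replicate 1, then 2) and by 2.56% and 5.98% for PBS. The fold enrichment at the strong site, the authors' own value for the height of the precipitated signal over its background at the summit, was 20.0 and 15.4 in the Dox libraries (replicate 1, then 2) and 11.7 and 14.4 in the PBS libraries. Because every library has its own background, folds rank peaks within a list and were not compared between conditions. The −log10 p was 45.3, 42.2, 22.8 and 40.7 in the same order of libraries, and the −log10 q was 39.1, 36.0, 16.9 and 34.8. The site thus had a strong peak both at baseline and after doxorubicin.

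By fold, the strong site ranked 6 of 46658 and 10 of 16642 peaks in the Dox lists (replicate 1, then 2), and 16 of 11304 and 23 of 22978 peaks in the PBS lists. By −log10 p it ranked 13, 11, 23 and 26. The next window peak had a fold of 3.97, 2.95, 2.78 and 3.26 in the same order, so the strong site stood 5.05, 5.21, 4.20 and 4.43 times above it. That next peak ranked 2455 of 46658 and 6006 of 16642 by fold in the Dox lists (replicate 1, then 2). In the PBS lists it ranked 4260 of 11304 and 6172 of 22978. In Dox replicate 1 it was thus still within the top 5.26% of the list. The rest of the window ranked far below the strong site in each list, as the plot of fold against rank shows.

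**Figure D1:**
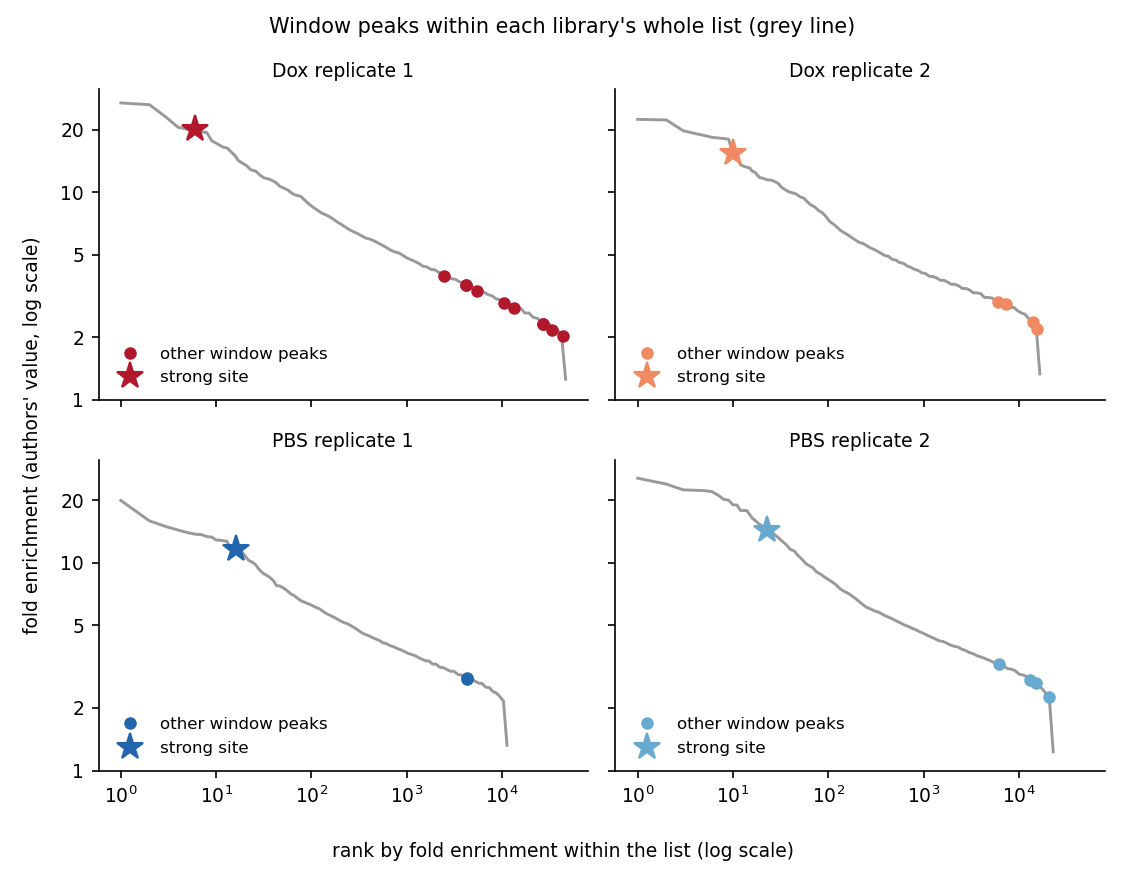
Fold enrichment (authors' value, log scale) against rank by fold (log scale) for each of the 4 peak lists; the grey line is the whole list, the star the strong site and the dots the other window peaks. The strong site has rank 6, 10, 16 and 23 in Dox replicates 1 and 2 and PBS replicates 1 and 2, and the other window peaks have folds of 3.97 or less.

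On chromosome 21 the strong site ranked 1 in each list, among 949, 360, 281 and 474 peaks in Dox replicates 1 and 2 and PBS replicates 1 and 2. The next peak of the chromosome by fold had 7.71, 5.56, 7.06 and 7.22, lower by factors of 2.60, 2.76, 1.65 and 2.00. In 3 lists that next peak was the same stretch, at chr21:9825441-9825715 in Dox replicate 1. In Dox replicate 2 it was at chr21:43712647-43714185. The nearest other peak that reached a −log10 q of 1.3 lay to the left of the strong site by 0.389 and 23.6 Mb in the Dox lists (replicate 1, then 2) and by 24.9 and 1.58 Mb in the PBS lists. To the right the distances were 0.617, 8.35, 11.3 and 2.89 Mb. These distances varied with the number of such peaks on chromosome 21, which was 59 and 15 in the Dox lists and 6 and 31 in the PBS lists.

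The summit of the strong site fell on nearly the same base in every library. It was at 34739698 and 34739705 in the Dox libraries (replicate 1, then 2) and at 34739708 and 34739690 in the PBS libraries. The 4 summits thus spanned 18 bp, with a gap of 7 bp between the Dox libraries and of 18 bp between the PBS libraries, so the conditions overlapped. Among the 3843 sites with a peak in all 4 libraries the median range of the 4 summits was 209 bp (quartiles 92 and 449.5). Of these sites, 2.06% had a range of 18 bp or less. Where a library had several peaks at a site, the peak of highest fold gave its summit and rank. The 4 summits of a long site can thus belong to different peaks, and how far this widened the ranges was not tested. Strong sites had closer summits in general, and among the 100 leading sites by mean rank the median was 48.5 bp, with 12 sites at 18 bp or less.

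**Figure D2:**
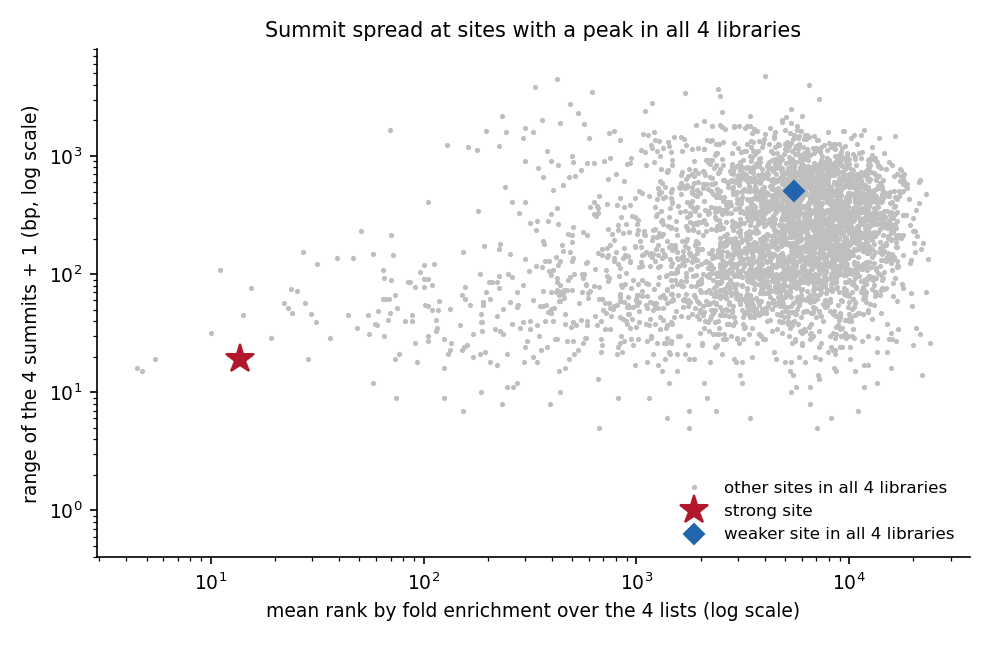
Range of the 4 summits plus 1 (bp, log scale) against the mean rank by fold enrichment over the 4 lists (log scale), 1 point for each of the 3843 sites with a peak in all 4 libraries. The star is the strong site, with a summit range of 18 bp, and the diamond is the weaker site of the window, with 505 bp.

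The called extent of the strong site varied more than its summit. It ran from 34739475 to 34740256 (782 bp) in Dox replicate 1, from 34739336 to 34739917 (582 bp) in Dox replicate 2, from 34739494 to 34739878 (385 bp) in PBS replicate 1 and from 34739305 to 34739904 (600 bp) in PBS replicate 2. The peak in PBS replicate 1, the shortest list, was the shortest and lay inside the other 3, so the stretch shared by all 4 was its own 385 bp. The median peak length was 283, 289, 282 and 282 bp in the lists in that order. The right arm, from summit to end, was 558 bp in Dox replicate 1 against 212, 170 and 214 bp in Dox replicate 2, PBS replicate 1 and PBS replicate 2. Dox replicate 1 therefore stood apart on the right side, and it was 1 of 2 Dox libraries. The left end differed by 19 bp within replicate number 1 and by 31 bp within number 2, against 139 bp between the Dox libraries and 189 bp between the PBS libraries. The left end was thus closer between libraries of a replicate number than between libraries of a treatment. At the right end this held for replicate number 2 (34739917 and 34739904) but not for number 1 (34740256 and 34739878).

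**Figure D3:**
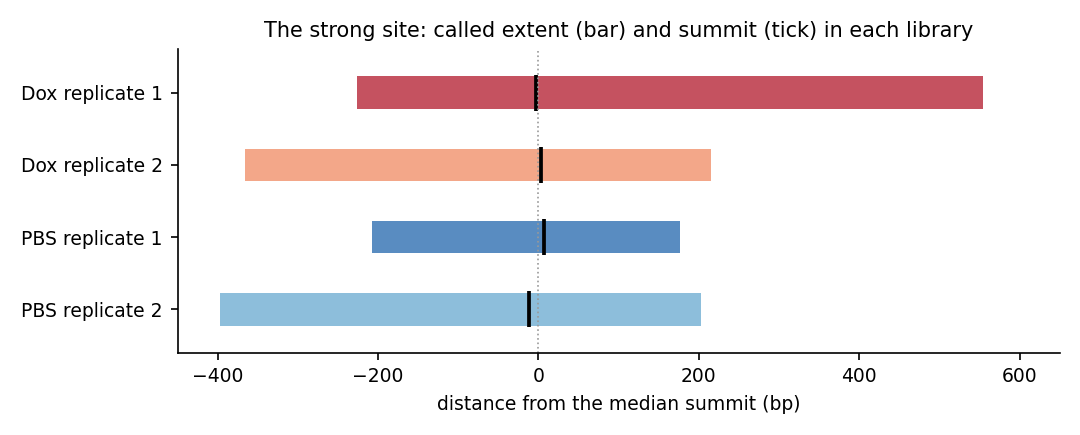
Called extent (bar) and summit (tick) of the strong site in each library, as distance in bp from the median of the 4 summits. The summits lie within 18 bp of each other, and the bar of Dox replicate 1 runs 558 bp to the right of its summit, against 170 to 214 bp in the other libraries.

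Ordered by the mean of their 4 ranks by fold, the sites with a peak in all 4 libraries had the strong site in place 6 of 3843, with a mean rank of 13.75 and a worst rank of 23. Its neighbours in that order were a site at chr12:120728496-120731197 and one at chr17:56708024-56709411. The site in place 5 had folds of 20.5, 14.8, 10.1 and 22.3 in Dox replicates 1 and 2 and PBS replicates 1 and 2, with summits within 108 bp. The site in place 7 had folds of 16.8, 18.4, 8.77 and 21.2, with summits within 44 bp. The site at chr6:36643748-36644624, in place 10, had folds of 11.9, 13.3, 11.9 and 13.2 and summits within 56 bp. The interferon receptor site had closer summits than these 3 sites of like rank, while the sites in places 1, 2 and 3 had summit ranges of 15, 14 and 18 bp. The site on chromosome 6 was picked from an earlier account of the same lists and the others by their place.

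Where the authors had matched peaks between the libraries of a condition, each pair carried an IDR (irreproducible discovery rate), an estimate of the share of irreproducible pairs among those ranked at least as high, so that a low value marks a pair near the top in both libraries. The strong site was the pair of rank 11 by IDR among 8784 Dox pairs, with an IDR of 8.34e-07, and of rank 16 among 6244 PBS pairs, with an IDR of 1.1e-05. Of all pairs, 27.5% for Dox and 15% for PBS had an IDR of at most 0.05. In the window, 1 of 4 Dox pairs and 1 of 3 PBS pairs did, the strong site each time. The other 3 Dox pairs had IDRs of 0.0722, 0.0964 and 0.423, and the other 2 PBS pairs 0.289 and 0.501.

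Counted by library, the window had 11 and 5 peaks in the Dox lists (replicate 1, then 2) and 3 and 5 peaks in the PBS lists. Dox replicate 1 was thus high, with the longest list, and PBS replicate 1 low, with the shortest, while the replicates of number 2 had the same number. The Dox libraries had a mean of 8 ± 4.24 window peaks and the PBS libraries 4 ± 1.41 (± SD over n = 2 libraries). A two-sided exact permutation test gave p = 0.667, and the smallest p this design can give is 0.333. The difference of 4 peaks was smaller than the SD between the Dox replicates. Within replicate number 1 it was 8 peaks and within number 2 it was 0. With each list limited to its 11304 peaks of smallest p, the length of the shortest list, the window held 5 and 3 peaks for Dox (replicate 1, then 2) and 3 and 2 for PBS, a difference of 1.5. Without Dox replicate 1 the difference fell to 1 peak, and without Dox replicate 2 it came to 7.

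As a share of its list, the window held 0.0236% and 0.030% of peaks for Dox (replicate 1, then 2) and 0.0265% and 0.0218% for PBS. The mean share was 0.0268% ± 0.00457 in the Dox lists and 0.0241% ± 0.00338 in the PBS lists (± SD over n = 2 libraries, exact permutation p = 0.667, two-sided). The share of Dox replicate 1 lay between those of the PBS libraries, so the conditions overlapped. Without Dox replicate 2 the difference, 0.00266 percentage points, became -0.000574, and with lists of equal length it was 0.0133. Of the peaks on chromosome 21, the window had 1.16%, 1.39%, 1.07% and 1.05% in Dox replicates 1 and 2 and PBS replicates 1 and 2.

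The peaks covered 4422, 2095, 968 and 2063 bp of the 230 kb in that order. The median fold of window peaks was 2.92 and 2.89 in the Dox lists, against 2.47 and 2.78 over the whole lists, and 2.78 and 2.73 in the PBS lists, against 2.64 and 2.85. Most window peaks were thus of ordinary height. Of 8938 stretches of the genome of the same length that held a site in any list, 13.7%, 11.1%, 15.3% and 16.1% had as many peaks as the window or more in Dox replicates 1 and 2 and PBS replicates 1 and 2. The median stretch had 2, 1, 0 and 1 peaks. The window's counts include the strong site for which it was chosen, so nothing was read from their place among the stretches.

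**Figure D4:**
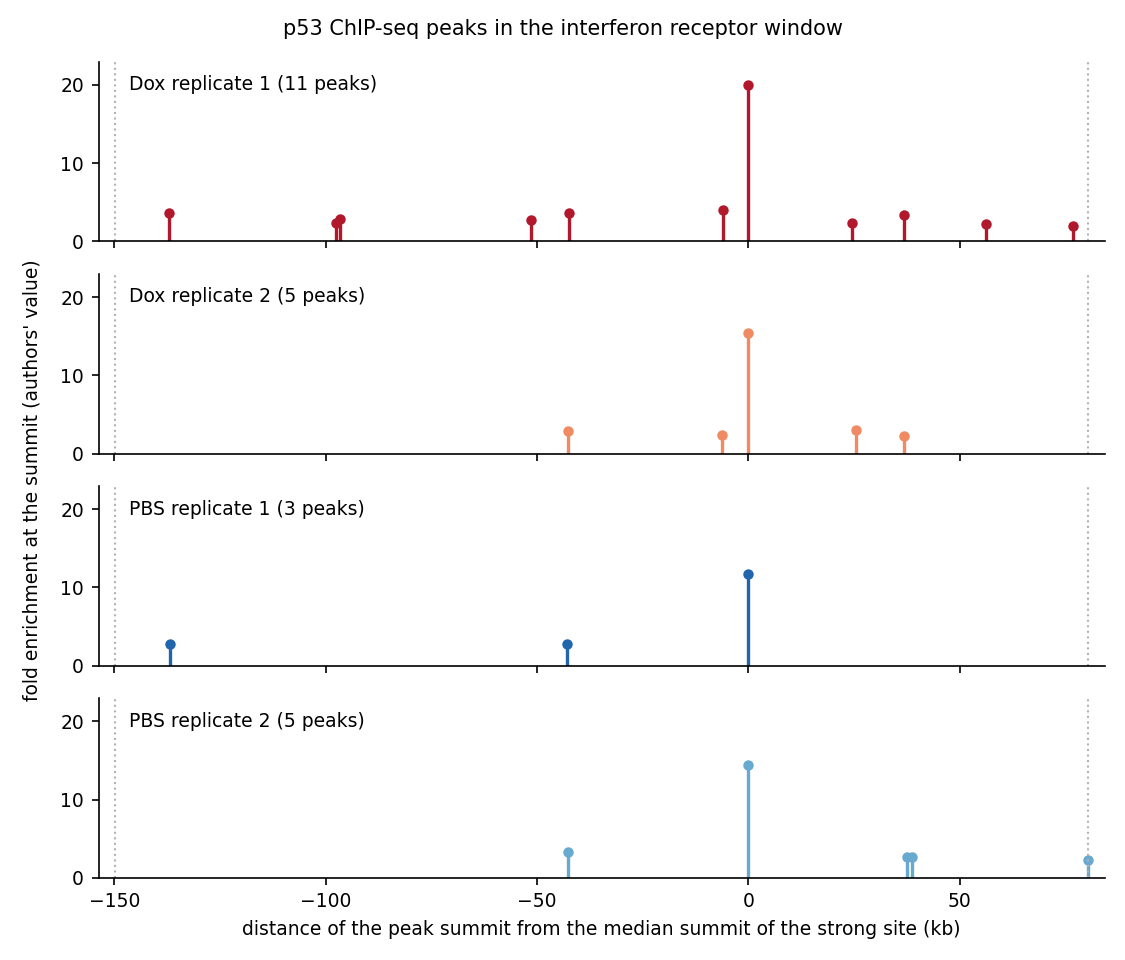
Fold enrichment (authors' value) of every window peak in each library against the distance of its summit from the median summit of the strong site (kb); dotted lines mark the ends of the window. The window holds 11, 5, 3 and 5 peaks in Dox replicates 1 and 2 and PBS replicates 1 and 2, and the strong site at 0 kb is the highest in each.

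Of the 15 window sites, 2 had a peak in all 4 libraries, against 6.02% of all sites of the series. One was the strong site and the other a weaker site at chr21:34696706-34697839. The fold at the weaker site was 3.59 and 2.89 in the Dox libraries (replicate 1, then 2) and 2.77 and 3.26 in the PBS libraries. Its −log10 p was 4.06, 3.20, 2.37 and 3.34 in the same order. It ranked 4214, 7257, 4349 and 6172 by fold, and in place 2019 of the 3843 sites by mean rank.

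The weaker site was a chain of peaks and not 1 common stretch. Its summits were at 34697282, 34697030, 34696777 and 34697047 in Dox replicates 1 and 2 and PBS replicates 1 and 2, a range of 505 bp. The peaks of Dox replicate 1 and PBS replicate 1 did not overlap and lay 135 bp apart, joined by the peaks of the other libraries. The summits of Dox replicate 2 and PBS replicate 2 were the closest, within the same passage. Of the sites in all 4 libraries, 78.7% had a summit range of 505 bp or less.

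In 2 window sites the Dox libraries both had a peak and the PBS libraries had none, a pattern held by 3.11% of all sites. The first, at chr21:34733082-34733800, lay 5504 bp to the left of the strong site. Its fold was 3.97 in Dox replicate 1 and 2.38 in Dox replicate 2, with −log10 p of 4.08 and 2.30. Its summits were 177 bp apart, at 34733688 and 34733511. In Dox replicate 1 this was the next highest window peak after the strong site.

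The second site of that pattern, at chr21:34776175-34776713, lay to the right of the strong site. Its fold was 3.36 in Dox replicate 1 and 2.19 in Dox replicate 2, with −log10 p of 3.71 and 1.78. The summits, at 34776611 and 34776604, were 7 bp apart, and 4.69% of the 1984 sites of this pattern had a gap that small or smaller (median 91 bp). A peak of PBS replicate 2 at chr21:34777036-34777243, with a fold of 2.63, began after a gap of 322 bp and did not overlap. Neither site kept the Dox pattern when each list was limited to its 11304 peaks of smallest p, and neither reached a −log10 q of 1.3 in any library.

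One site, at chr21:34819968-34820265, had a peak in each PBS library and none in the Dox libraries, a pattern held by 0.928% of all sites. Its PBS replicate 2 peak, with a fold of 2.26, crossed the end of the window. Its PBS replicate 1 peak, with a fold of 2.30 and a −log10 p of 1.70, began 3 bp past that end and is not among the 24 peaks. It was the nearest peak outside the window in any list. The next nearest on the right began 3626 bp past the end in PBS replicate 2, and the nearest on the left ended 14340 bp before the window in Dox replicate 1.

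Another site, at chr21:34602661-34603032, had a peak in both libraries of replicate number 1 alone, a pattern held by 2.29% of all sites. Its fold was 3.58 in Dox replicate 1 and 2.78 in PBS replicate 1, with summits 74 bp apart. In PBS replicate 1 this was the next highest window peak after the strong site. Neither library of passage 5 had a peak there.

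The remaining 9 sites had a peak in 1 library, against 72.5% of all sites. Of these, 6 and 1 were in the Dox libraries (replicate 1, then 2) and 0 and 2 in the PBS libraries. Their folds ran from 2.02 to 2.95, and their highest −log10 p was 2.83. Single peaks of Dox replicate 1 at chr21:34764263-34764459 and of Dox replicate 2 at chr21:34765075-34765357 lay 615 bp apart without overlap. The number of such sites followed the length of the lists, with most in the longest list and none in the shortest.

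The read depth behind each list is not given, and a peak call alone is no proof of p53 at that place. Outside the strong site, a −log10 q of 0 was listed for 6, 4, 2 and 4 window peaks in Dox replicates 1 and 2 and PBS replicates 1 and 2, so the weaker sites rest on the caller's unadjusted p.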

How the data were processed

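Per the submitters' processing notes, reads were handled with BWA and MACS2 on build hg19. No version is given in the sources used here. For each ChIP library the authors deposited 1 peak list, called separately, with a fold enrichment per peak (ratio of signal to background) and the −log10 p-value and −log10 q-value of the caller. The peak names, per the file headers, state a p limit of 0.05. The authors also deposited 1 table of matched peak pairs per condition, with −log10 p-values of both peaks and an IDR (irreproducible discovery rate), a value from 0 to 1 like a q-value. Lists held 11304 to 46658 peaks. The 4 input samples were not analysed here.

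Peak positions were taken as inclusive, since the summit column reached both the start and the end of peaks. Peaks that shared at least 1 bp were merged into sites over the 4 lists. Peaks were ranked within each list by fold. Window counts and shares were compared over the 4 libraries by an exact permutation test, two-sided. The merging and the window counts were tested on simulated data with planted sites, and the exact tests on small sets of numbers with a known p. The ranking was not tested in this way. Alternatives were a −log10 q of at least 1.3, lists of equal length, a window 50 kb longer at both ends, a stricter overlap, a replicate block and leaving out each library. Named were the 4 receptor genes, every window site with a peak in at least 2 libraries, and leading sites of the series for comparison. A list of interferon and interleukin pathway genes and the peak nearest CDKN1A were to be placed only with gene positions on hg19, and are not reported here, because the gene table used is on GRCh38.p14. The window, the members and the lists were chosen with earlier results of these data known. The scripts ran on Python 3.11.15 with scipy 1.17.1, numpy 2.4.6, matplotlib 3.10.9 and pandas 2.3.3.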

Additional observations from a re-analysis of the deposited data

Results flagged for a closer look

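The share of a list that fell in the interferon receptor window was lower in Dox than in PBS in one replicate number and higher in the other. Within replicate number 1, from passage 3, the share in Dox minus that in PBS was -0.002963 percentage points, and within replicate number 2, from passage 5, it was 0.008285. Each condition has 1 library there, and whether the numbers differ was not tested. As to length, the list of Dox replicate 1 held 46658 peaks and that of PBS replicate 1 held 11304. With each list limited to its 11304 peaks of smallest p, the window held more peaks in Dox than in PBS in both numbers. The counts were 5 against 3 within number 1 and 3 against 2 within number 2, each with the strong site included. Whether list length bears on the opposite directions was not tested.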

How the results depend on the processing

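The presence of 2 window sites in all 4 libraries held with a stricter overlap of the peaks and with lists of equal length (2 sites each time). Without each library in turn, 2 sites had a peak in every library that remained. A site in all 4 keeps this unless its chain of peaks breaks, so that alternative had little room to change. At a −log10 q of at least 1.3, 1 site remained, the strong site. At that q limit, which leaves 1 window peak per list, the difference in window peaks was 0. The sites in the Dox pair alone and in the PBS pair alone were 0, and the difference in share was -0.118 percentage points. With 1 window peak in each list, that difference is set by the number of peaks that reach the limit and does not describe the window. Those numbers were 1708 and 806 for Dox (replicate 1, then 2) and 289 and 1374 for PBS. With lists of equal length the sites of the Dox pair alone and of the PBS pair alone were 0, since fewer peaks were kept, the difference in window peaks was 1.5 and the difference in share was 0.0133 percentage points. At that limit 2287 of 4946 Dox replicate 1 peaks tied in p were kept, none of them in the window. The Dox replicate 1 window peaks at chr21:34642980-34643252 and chr21:34688211-34688443 had this same −log10 p of 2.83. They were left out only by the order set among tied peaks, first by fold, so the count of 5 depends on that order. With the window 50 kb longer at both ends the difference in share became -0.0102, and the cause was not tested. Leaving out 1 library at a time, the difference in window peaks ran from 1 to 7 and the difference in share from -0.000574 to 0.00589 percentage points. At an IDR of at most 0.05 the window had 1 matched pair for Dox and 1 for PBS. The rank of the strong site in Dox replicate 1 was 13 by −log10 p.

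With a replicate block, the differences were 4 peaks and 0.00266 percentage points, with an exact sign-flip p of 1 for both, where 2 pairs allow no p under 0.5. The labels do not say that libraries of a replicate number were paired beyond their passage. Read depth is not given, so absence of a peak in a library was judged against lists of unlike length.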
